A study of Mus musculus with 30 samples.

Results

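Liver RNA from mice with a liver-specific deletion of *Egr-1* was compared with that of wild-type (WT) littermates at 2 months of age. The comparison used 4 of the 30 libraries of the series, which were chosen by their labelled age and genotype: 1 WT and 1 knockout (KO) library at the time point called H and 1 of each at the time point called L. H and L stand for the hours at which Egr-1 protein was highest and lowest in the liver, which the study's methods place at ZT13 and ZT17 for this age (ZT0 being lights on). All mice were males on standard chow. The study's methods give strain 129 for the KO lines, backcrossed to C57BL/6J, which they name as the background of the floxed *Egr-1* mice. The deletion was driven by *Alb-Cre*, which acts in hepatocytes, so that the other cells of the liver keep the gene. Each combination of genotype and time was 1 library. The study's legends speak of several mice per group for its RNA sequencing, and how those mice relate to the single library of each group in the files is not given in the sources used here. The libraries at 6 and 12 months, 8 in all, were used to estimate the spread between pairs and to see the same genes at other ages.

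Egr-1 is a zinc-finger transcription factor of the immediate-early class. Its RNA is induced rapidly by growth factors and hormones, and the protein binds GC-rich sites close to the start of its target genes. In the liver it has been linked to the daily clock, to lipid handling and to the response to injury.

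The targeted gene did not separate the 4 libraries at 2 months by genotype. *Egr1* had 50 counts in the WT H library (2.55 CPM, the count scaled to the normalized library total, with an exact Poisson 95% interval of 1.9 to 3.37) and 41 counts in the KO H library (1.97 CPM, 1.42 to 2.68). In the L pair, the library labelled WT had 21 counts (1.46 CPM, 0.901 to 2.23) and the library labelled KO had 116 counts (7.37 CPM, 6.09 to 8.84). The H intervals overlap, and in the L pair *Egr1* was higher in the library labelled KO. At the other ages it was 72.2 CPM in WT and 5.502 CPM in KO at 6 months H, 25.05 and 4.96 CPM at 6 months L, 5.86 and 6.12 CPM at 12 months H, and 55.4 and 1.54 CPM at 12 months L. The labelled KO was thus far lower in 3 of those 4 pairs. The whole-gene count does not show which exons the reads came from, so WT and KO are used below as the labels of the libraries. The intervals cover counting error only.

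The libraries held between 14974248 and 21116547 counts, and the share of mitochondrially encoded genes lay between 3.33% and 4.68%. The defining hepatocyte markers were high in all 4 libraries, while markers of fat and exocrine pancreas were near 0 or low, at 2.42 to 4.43 and 29.9 to 37.4 CPM in all. *Alb*, which encodes albumin, was 54280 and 36010 CPM in WT H and KO H, and 58510 and 34080 CPM in WT L and KO L. The hepatocyte markers did not share this direction. Of the 8, 2 were lower in both pairs and 1 was higher in both (26% and 27.6% of all genes). In the other 5 the signs differed (46% of all genes). In bulk RNA, fewer cells of a type and less RNA in each cell cannot be told apart.

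No gene passed the test over all genes. Of 14843 genes tested, 0 differed between the genotypes at 2 months at an adjusted p under 0.05 in the edgeR test (quasi-likelihood F with Benjamini-Hochberg correction), 0% of those tested. At an unadjusted p under 0.05 there were 970 genes, of which 516 were higher in KO (3.48%) and 454 lower (3.06%). The Wald test of DESeq2 called 29 genes at an adjusted p under 0.05, of which 20 are among the 30 genes named below. All genes below are therefore given by their values, and an unadjusted p is named as such.

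The 2 pairs had little in common across the genome. Over 2-fold differences in both pairs in the same direction were found in 174 genes, 82 higher in KO (0.552%) and 92 lower (0.62%), while 175 genes (1.18%) differed over 2-fold in opposite directions. The 174 genes made up 19.7% of the 883 genes over 2-fold in the H pair and 12.3% of the 1411 genes over 2-fold in the L pair. The log2 ratios of the H and L pairs had a Pearson r of 0.02 and a Spearman rho of 0.09 over the genes tested, and they shared no library. Genes just past the limit were *Rftn2*, *Usp50*, and *Gm3555*, with a smaller pair ratio of 1.002, 1.004, and 1.008 on the log2 scale, and just short of it lay *B430219N15Rik*, *AC102496.1*, and *Esrrg* at 0.999, 0.997, and 0.996.

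Most of the 174 genes had few reads. Their highest CPM had a median of 1.18, compared with 13.2 over all genes tested, and 90 of them (51.7%) had 3 counts or fewer in at least 1 library, compared with 5.94% of all genes. Protein-coding genes made up 58.6% of them and 88.1% of all genes tested. At least 5 CPM in 1 library was reached by 31 of the 174 genes, 14 higher and 17 lower in KO, beside 33 genes of that level that differed over 2-fold in opposite directions. The plot of the pair ratios shows the 4 groups of genes.

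**Figure D1:**
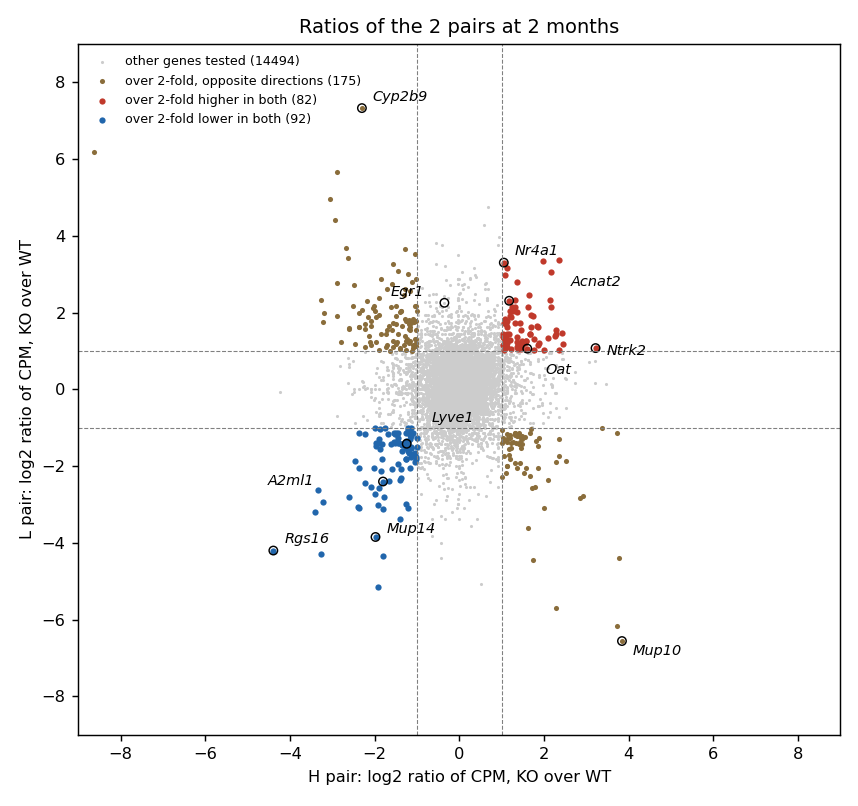
Log2 ratio of CPM, KO over WT, in the H pair (x axis) and the L pair (y axis) for the 14843 genes tested, each point being 1 gene and the dashed lines marking 2-fold. The 82 genes over 2-fold higher in both pairs (red) and the 92 lower in both (blue) are together about as many as the 175 that differ over 2-fold in opposite directions (brown), and *Egr1* lies on the lower side in H and the higher side in L.

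Among genes lower in both libraries labelled KO, the smallest p belonged to *A2ml1*, which encodes a protease inhibitor of the alpha-macroglobulin family (chromosome 6, 128539821 to 128581608, GRCm38). It was 20.1 CPM in WT H, 5.68 in KO H, 21.6 in WT L, and 4.004 in KO L. The 2 WT values lay close together, and so did the 2 KO values. Its log2 fold change was -2.11 with a standard error of 0.20 (adjusted p = 0.0662 from edgeR).

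*Rgs16* had a log2 ratio below -4 in both pairs. It encodes a regulator that shortens signals from G protein-coupled receptors and lies on chromosome 1 from 153740349 to 153745468 (GRCm38). It was 11.3 CPM in WT H and 0.433 in KO H, and 32.3 CPM in WT L and 1.65 in KO L. Both KO libraries lay below both WT libraries, and the log2 fold change was -4.43 (standard error 0.51, adjusted p = 0.115 in the same edgeR test). *Rgs16* is known as a gene of the daily cycle in the liver, and its values over the day are given further on.

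Secreted proteins of the liver with hormone-like roles were among the lower genes. *Serpina12*, which encodes vaspin, was 98.6 CPM in WT H, 52.8 in KO H, 153.5 in WT L, and 37.1 in KO L. *Inhba*, the activin A subunit, was 8.79 and 4.53 CPM in WT H and KO H, and 16.8 and 8.14 CPM in WT L and KO L. *Fgf21*, the fasting and protein-restriction hormone, had 86 counts in WT H and 7 in KO H, and 14 counts in WT L and 1 in KO L. The L pair of *Fgf21* thus rests on few reads. Of the 19 hepatokine genes tested, 4 were lower and 1 was higher at an unadjusted p under 0.05 (3.06% and 3.48% of all genes). In both pairs 11 were lower (26% of all genes tested were lower in both). Without the L pair, 3 were lower and 1 higher at an unadjusted p under 0.05 (1.41% and 1.65% of all genes).

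Markers of vessel walls were not lower as a group. *Lyve1*, a hyaluronan receptor of liver sinusoidal and lymphatic endothelium, was 15.3 CPM in WT H, 6.403 in KO H, 15.8 in WT L, and 5.85 in KO L, with both KO values below both WT values (log2 fold change -1.34, standard error 0.20, adjusted p = 0.308, edgeR). *Esm1*, which endothelial cells secrete, had 64 counts in WT H and 5 in KO H, and 30 counts in WT L and 0 in KO L, at least 10.9-fold lower when 3 counts are taken as the floor. The other 8 endothelial markers had an unadjusted p over 0.05. *Eng* was 66.7 and 79.5 CPM in H and 53.5 and 68.4 CPM in L, *Kdr* was 34.7 and 41.8 CPM in H and 30.6 and 35.4 CPM in L, and the summed markers were 322.1, 358.3, 318.9, and 325.1 CPM in WT H, KO H, WT L, and KO L.

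Single enzymes of retinoid and xenobiotic metabolism were also among the lower genes, but the lists of xenobiotic enzymes were not lower as a group. Of 32 P450 and xenobiotic genes, 4 were higher and 3 lower at an unadjusted p under 0.05 (edgeR). Of 36 genes of conjugation (phase 2), 2 were higher and 2 lower (3.48% and 3.06% of all genes). In both pairs, 11 and 8 of the 32 were higher and lower, and 7 and 11 of the 36 (27.6% and 26% of all genes). *Rdh16f2*, a retinol dehydrogenase, was 112.9 and 68.3 CPM in the H pair and 117.6 and 66.2 CPM in the L pair. *Ugt1a7c*, a glucuronosyltransferase, was 5.42 and 0.481 CPM in the H pair and 8.45 and 1.02 CPM in the L pair. It shares its last exons with the other *Ugt1a* genes, and *Gstp3* has close paralogs, so that reads may have been split between copies. *Gstp3* was 22.8 and 14.7 CPM in H and 28.3 and 11.5 CPM in L.

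Other lower genes of the 15 with the smallest p were *Smyd1*, *Ccl9*, *Cyp2u1*, and *Spata2l*. *Ccl9*, a chemokine for myeloid cells, was 81.0 and 37.5 CPM in H and 82.0 and 50.7 CPM in L. *Cyp2u1*, a P450 that hydroxylates long-chain fatty acids, was 19.7 and 12.3 CPM in H and 17.3 and 6.42 CPM in L. *Smyd1*, a methyltransferase best known from muscle, was 3.47 and 1.25 CPM in H and 5.06 and 0.890 CPM in L. Over all 15, log2 fold changes reached from 0.78 to 4.43 in size and adjusted p from 0.0662 to 0.493 (edgeR).

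*Oat* stood out among the higher genes by its abundance. It encodes ornithine aminotransferase, a mitochondrial enzyme of the hepatocytes around the central vein, and lies on chromosome 7 from 132557478 to 132576398. It was 633.3 CPM in WT H and 1924 in KO H, and 729.8 CPM in WT L and 1524 in KO L. Both KO libraries lay above both WT libraries. The log2 fold change was 1.33 with a standard error of 0.19 (adjusted p = 0.264, edgeR). *Lhpp*, a phosphohistidine phosphatase whose gene is on the same chromosome from 132610638 to 132706420, was 65.2 and 151.8 CPM in the H pair and 70.8 and 131.6 CPM in the L pair.

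The plot of 12 genes by library shows the same separation in 6 lower and 6 higher genes. *Dpy19l3*, which adds mannose to tryptophans of secreted proteins, was 5.72 and 14.9 CPM in H and 5.75 and 15.1 CPM in L, so that the 2 pairs had almost the same ratio (log2 fold change 1.39, standard error 0.16, adjusted p = 0.115, edgeR). *Acnat2*, a peroxisomal acyltransferase that conjugates fatty acids to amino acids, was 15.5 and 35.1 CPM in H and 11.5 and 57.5 CPM in L. *Plk3*, a stress-responsive kinase, was 32.03 and 76.4 CPM in H and 21.6 and 96.5 CPM in L. *Got1*, the cytosolic aspartate aminotransferase, was 235.2 and 362.7 CPM in H and 150.7 and 323.4 CPM in L.

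**Figure D2:**
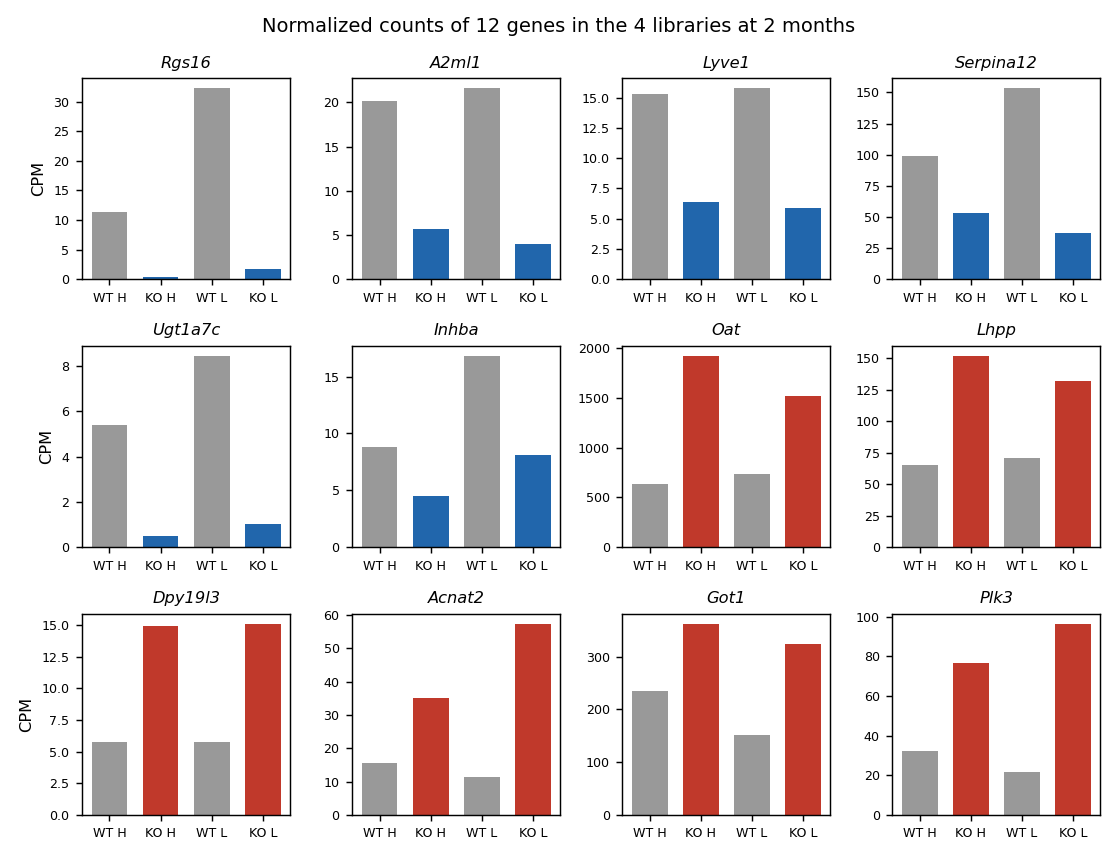
Normalized counts (CPM, y axis from 0) of 12 genes in the 4 libraries at 2 months, with grey bars for WT and coloured bars for KO, 1 library per bar and no error bar. In each panel both KO bars lie on the same side of both WT bars, as in *A2ml1* with 20.1 and 21.6 CPM in WT and 5.68 and 4.004 CPM in KO.

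Genes with other roles filled the rest of the 15 higher genes. *Slc22a3*, an organic cation transporter, was 4.04 and 14.01 CPM in H and 4.50 and 9.34 CPM in L. *Bmp7*, a secreted growth factor, was 4.70 and 9.24 CPM in H and 2.70 and 7.31 CPM in L. *Gnpda1*, an isomerase of amino sugar metabolism, was 13.8 and 23.8 CPM in H and 13.03 and 21.5 CPM in L. *Olig1*, *Ctcflos*, *Wdfy1*, *Daam2*, *Zap70*, and *Ildr2* were the others, with a log2 fold change from 0.69 in *Ildr2* to 1.72 in *Ctcflos*. *Ctcflos* is antisense to another gene, and reads of the 2 strands cannot be told apart unless the counting used strand, which the sources used here do not give. Adjusted p over the 15 lay between 0.115 and 0.417 (edgeR).

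The promoters of these genes were searched for GCGNGGGCG, the core letters of the site bound by EGR proteins, on both strands of the 250 bases before and 50 bases after each annotated start (RefSeq, GRCm38.p6). Of the 174 genes, 101 had a window, and 10 of these (9.9%) held the motif, compared with 11.8% of the 10817 tested genes that had a window and 6.27% of all 27025 genes in the table. The share was 9.43% for the genes higher in KO and 10.4% for those lower. By windows, 5.55% of 32851 held it. The matches in *Oat*, *Dpy19l3*, and *Nr4a1* are shown because these are the genes among those named with a match and over 2-fold in both pairs, and *Sstr2* as 1 of the 5 lower genes with a match. Capitals mark the motif, or its reverse complement in *Nr4a1*, and 10 bases on either side are in lower case, read in the direction of the gene.
Oat: gagagaacggGCGGGGGCGggacagacac
Dpy19l3: agcgcgggagGCGGGGGCGgggccttgcg
Nr4a1: gcgtcagtggCGCCCCCGCccctctccat
Sstr2: gacgtcacggGCGGGGGCGtggggaagtg
These stretches lie at chr7:132576382-132576410 on the minus strand, chr7:35754503-35754531 on the minus strand, chr15:101266776-101266804 on the plus strand, and chr11:113619270-113619298 on the plus strand. In all 4 the motif overlaps a GC box (GGGCGG on either strand), so the same letters can be read as either. A match is a description of the sequence and no site of binding.

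Of 9 markers of pericentral hepatocytes, 7 were higher in KO in both pairs (27.6% of all genes). This zone around the central vein is where hepatocytes make glutamine and carry out much of the P450 metabolism. At an unadjusted p under 0.05, 5 of the 9 were higher and 0 lower (3.48% and 3.06% of all genes), and the 9 summed to 8597 and 12440 CPM in WT H and KO H and to 8536 and 11490 CPM in WT L and KO L. Without the L pair, 4 of the 9 were higher at an unadjusted p under 0.05 (1.65% of all genes). The median log2 fold change of the 9 was 0.42, compared with 0.002 over all genes tested.

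The 5 markers were *Oat*, *Slc1a2*, *Cyp2e1*, *Glul*, and *Rhbg*. *Glul*, glutamine synthetase, was 931.9 CPM in WT H, 1281 in KO H, 978.6 in WT L, and 1280 in KO L, with the KO values alike and the WT values alike (log2 fold change 0.42, standard error 0.13, unadjusted p = 0.0105, edgeR). *Cyp2e1*, the ethanol-inducible P450, was 5243 and 7224 CPM in H and 4939 and 6691 CPM in L. *Slc1a2*, a glutamate transporter, was 79.1 and 126.3 CPM in H and 42.8 and 113.8 CPM in L, and *Rhbg*, an ammonium channel, was 2.76 and 4.29 CPM in H and 2.36 and 4.13 CPM in L. *Axin2* and *Lgr5*, targets of Wnt signalling in this zone, had unadjusted p of 0.318 and 0.407, with *Axin2* at 5.98 and 5.25 CPM in H and 3.40 and 6.55 CPM in L. The periportal markers did not share a direction across the pairs, with medians of -0.28 in H, where 7 of 9 were lower, and 0.12 in L. At an unadjusted p under 0.05, 0 were higher and 1 lower (3.48% and 3.06% of all genes). In both pairs 2 were higher and 4 lower (27.6% and 26% of all genes).

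Enzymes of amino acid breakdown and the urea cycle overlapped with this list. Of the 35 genes, 7 were higher and 2 lower at an unadjusted p under 0.05 (3.48% and 3.06% of all genes), *Oat* and *Glul* among the 7. *Cth*, which releases cysteine from cystathionine, was 343.7 and 515.5 CPM in H and 380.0 and 505.3 CPM in L. *Sdsl* was lower, with 25.9 and 18.01 CPM in H and 25.2 and 13.3 CPM in L. Without the L pair, 4 were higher and 0 lower at that threshold (1.65% and 1.41% of all genes).

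Genes of the matrix and of stellate cells had more members higher than lower. Of 24 collagen and fibrosis genes, 6 were higher and 0 lower at an unadjusted p under 0.05 (3.48% and 3.06% of all genes), and 13 were higher in both pairs (27.6% of all genes). Without the L pair, 5 were higher and 1 lower at that threshold (1.65% and 1.41% of all genes). *Timp2*, an inhibitor of matrix proteases, was 28.2 and 42.9 CPM in H and 30.2 and 53.6 CPM in L. *Col1a1*, the main fibrillar collagen chain, was 12.7 and 20.2 CPM in H and 28.4 and 35.1 CPM in L. The summed CPM of the list was 1941, 1557, 1811, and 1846 in WT H, KO H, WT L, and KO L, so the list was not higher as a sum. *Col18a1*, the collagen that hepatocytes make, gave much of that sum, with 801.4 and 630.3 CPM in H and 735.3 and 620.8 CPM in L. The 10 markers of stellate cells and fibroblasts summed to 501.9, 558.8, 541.0, and 657.8 CPM, and 8 of them were higher in both pairs. Their part in the result was not tested.

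**Figure D3:**
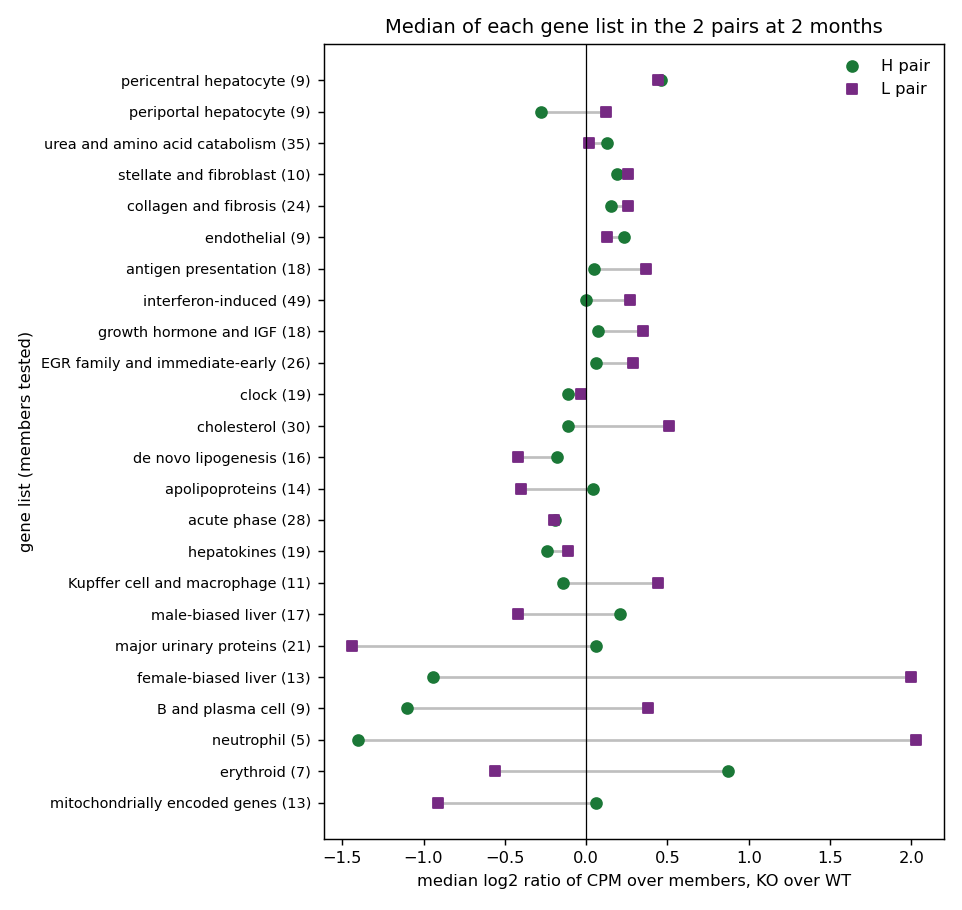
Median log2 ratio of CPM, KO over WT (x axis), over the members of each gene list (y axis, with the number of members tested) in the H pair (green circles) and the L pair (purple squares), with 2 counts added before the ratio. The pericentral list has close medians in the 2 pairs, 0.46 and 0.44, while the neutrophil and female-biased lists have opposite signs in the 2 pairs.

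Genes of fatty acid synthesis were lower in both pairs in 10 of 16 cases (26% of all genes). At an unadjusted p under 0.05, 3 were lower and 0 higher (3.06% and 3.48% of all genes). *Acaca*, the first enzyme of the pathway, was 102.7 and 75.1 CPM in H and 103.9 and 47.1 CPM in L. *Pklr*, liver pyruvate kinase, was 788.2 and 643.9 CPM in H and 671.5 and 280.6 CPM in L. *Mlxipl*, which encodes the carbohydrate-sensing factor ChREBP, was 91.8 and 81.2 CPM in H and 101.0 and 73.2 CPM in L. Without the L pair, 0 of the 16 had an unadjusted p under 0.05. In the H pair 15 of the 16 were lower, as were 7521 of all 14843 genes. The median log2 ratio of the 16 in that pair was -0.18, beside -0.004 over all genes.

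Of the lipid genes that the study names, *Apoa1*, the main protein of HDL, was 10376 CPM in WT H, 7333 in KO H, 11614 in WT L, and 6606 in KO L (log2 fold change -0.66, standard error 0.17, unadjusted p = 0.00508, adjusted p = 0.585, edgeR). *Smim22*, a small membrane protein, was 5.16 and 1.35 CPM in H and 3.95 and 0.826 CPM in L. *Cidea*, which enlarges lipid droplets, had 0 counts in WT H and 19 in KO H, at least 5.98-fold higher with 3 counts as the floor, and 1 and 3 counts in the L pair, both at or under that floor. *Enho*, which encodes the secreted peptide adropin, was 33.6 and 21.8 CPM in H and 27.3 and 25.3 CPM in L. *Cd36*, a fatty acid transporter, was 33.8 and 36.2 CPM in H and 28.3 and 54.4 CPM in L (log2 fold change 0.52, standard error 0.38, unadjusted p = 0.207, edgeR). The study chose its genes on these samples, so they are no independent evidence of a direction. *Hsd17b13*, an enzyme on lipid droplets that is not among the study's genes, was 330.8 and 221.6 CPM in H and 355.6 and 201.2 CPM in L (unadjusted p = 0.00304, edgeR).

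In the growth hormone axis, the feedback inhibitors of JAK-STAT signalling were higher in both libraries labelled KO. *Cish* was 4.85 CPM in WT H, 15.5 in KO H, 3.33 in WT L, and 18.8 in KO L. *Socs2* was 11.1 and 25.1 CPM in H and 14.6 and 24.9 CPM in L, and *Socs3* was 6.95 and 11.3 CPM in H and 6.03 and 19 CPM in L. *Onecut1*, a hepatocyte transcription factor, was 16.7 and 36.7 CPM in H and 27.7 and 48.7 CPM in L. *Igfbp2*, an IGF-binding protein, was lower, with 838.7 and 428.4 CPM in H and 629.8 and 360.6 CPM in L. Over the list, 4 of 18 were higher and 1 lower at an unadjusted p under 0.05 (3.48% and 3.06% of all genes), and 3 and 1 without the L pair (1.65% and 1.41%). At 6 and 12 months, the log2 fold change of *Cish* was -0.86.

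The list of EGR family and immediate-early genes had larger ratios in the L pair, where its median log2 ratio was 0.29, than in the H pair, where it was 0.06. *Nr4a1*, an orphan nuclear receptor induced with *Egr1*, was 0.664 and 1.49 CPM in H and 1.32 and 13.98 CPM in L. *Junb* was 18.3 and 21.2 CPM in H and 10.7 and 43.8 CPM in L, and *Atf3* was 3.01 and 3.03 CPM in H and 1.18 and 7.25 CPM in L. *Gadd45g*, a growth arrest gene, showed the reverse, with 6.74 and 31.6 CPM in H and 15.1 and 18.8 CPM in L. The KO L library, in which *Egr1* itself was highest of the 4, was thus also the one with the most *Nr4a1*, *Junb*, and *Atf3*. Of 26 genes tested, 4 were higher and 0 lower at an unadjusted p under 0.05 (3.48% and 3.06% of all genes). Without the L pair, a single gene of the 26 was higher and 0 were lower (1.65% and 1.41% of all genes).

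Clock genes gave no difference that passed even without adjustment. None of the 19 had an unadjusted p under 0.05 (0 higher and 0 lower by edgeR, also without the L pair). In 11 of the 19 the 2 pairs had opposite signs, as they had in 46% of all genes tested. *Per2* was 41.4 and 35.6 CPM in H and 45.0 and 35.0 CPM in L. *Dbp*, a clock output factor, was 28.2 and 23.3 CPM in H and 24.5 and 73.0 CPM in L, and *Arntl* was 5.01 and 9.58 CPM in H and 4.92 and 1.65 CPM in L. In the L pair, *Dbp* was therefore higher and *Arntl* lower in the KO library.

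Several groups had opposite directions in the 2 pairs. The summed CPM of 8 neutrophil markers was 8.07 in WT H, 2.36 in KO H, 10.1 in WT L, and 38.1 in KO L. That of 10 B and plasma cell markers was 48.8, 28.7, 31.9, and 66.4 CPM in the same order. Of the defining neutrophil markers, *Ly6g* was at 0 counts in 3 libraries and *S100a9* was 3.12, 0.241, 3.67, and 15 CPM. The KO L library was the highest of the 4 in both lists and the KO H library the lowest.

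The major urinary proteins and the female-biased genes, which follow the pattern of growth hormone release, also differed between the pairs. The 21 *Mup* genes summed to 25510 and 25990 CPM in WT H and KO H, and to 45590 and 16320 CPM in WT L and KO L. Over 2-fold differences in opposite directions were found in 6 of the 21 (1.18% of all genes). *Mup10* was 25.8 and 370.1 CPM in H and 1542 and 16.3 CPM in L. *Mup14* was lower in both pairs, with 612.8 and 155.1 CPM in H and 1019 and 70.7 CPM in L. Reads of *Mup* genes are hard to assign, because the copies are nearly identical. *Cyp2b9*, a P450 that female livers express more, was 3.53 and 0.626 CPM in H and 0.277 and 62.4 CPM in L. The female-biased gene *Cyp2a4* was 21.2 and 2.65 CPM in H and 0.416 and 11.2 CPM in L. Over 2-fold differences in opposite directions were found in 5 of 13 female-biased and 0 of 17 male-biased genes tested (1.18% of all genes). The signs differed in 10 of the 13 and 9 of the 17 (46% of all genes). The male-biased medians were 0.21 in H and -0.42 in L on the log2 scale. Whether these values have a part in the small agreement between the pairs was not tested.

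The direction at 6 and 12 months was read from the 4 pairs of those ages. Of the 174 genes, which were chosen on the 2-month libraries, 20.7% had their 2-month sign in all 4 pairs, compared with 14.8% of all genes tested. The share was 25.6% of those higher and 16.3% of those lower. Among the genes with at least 5 CPM in 1 of the 2-month libraries, 8 of the 14 higher and 7 of the 17 lower had it in all 4 pairs. Of all genes tested at that level, 16.2% had it. Of the 15 higher genes with the smallest p, 12 were higher in KO in all 4 pairs, and of the 15 lower genes, 9 were lower in all 4. The p that ranked these 30 genes used the spread within the pairs of the later ages, so their counts, also in the fit that follows, are a description and cannot be set against the share of all genes. A fit of the 8 libraries alone, chosen after seeing the data, called 30 genes at an adjusted p under 0.05 (0.202%), of which *A2ml1*, *Ccl9*, *Gstp3*, and *Rdh16f2* are among the 15 lower genes and 0 among the 15 higher genes. Their log2 fold changes in that fit were -1.60, -0.99, -0.87, and -1.27, with adjusted p of 0.0309, 0.0309, 0.0285, and 0.0115 (edgeR). Of the 174 genes, *A2ml1* and *Gm31583*, a long noncoding RNA at 27.1, 7.08, 32.8, and 3.94 CPM in WT H, KO H, WT L, and KO L, passed it.

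**Figure D4:**
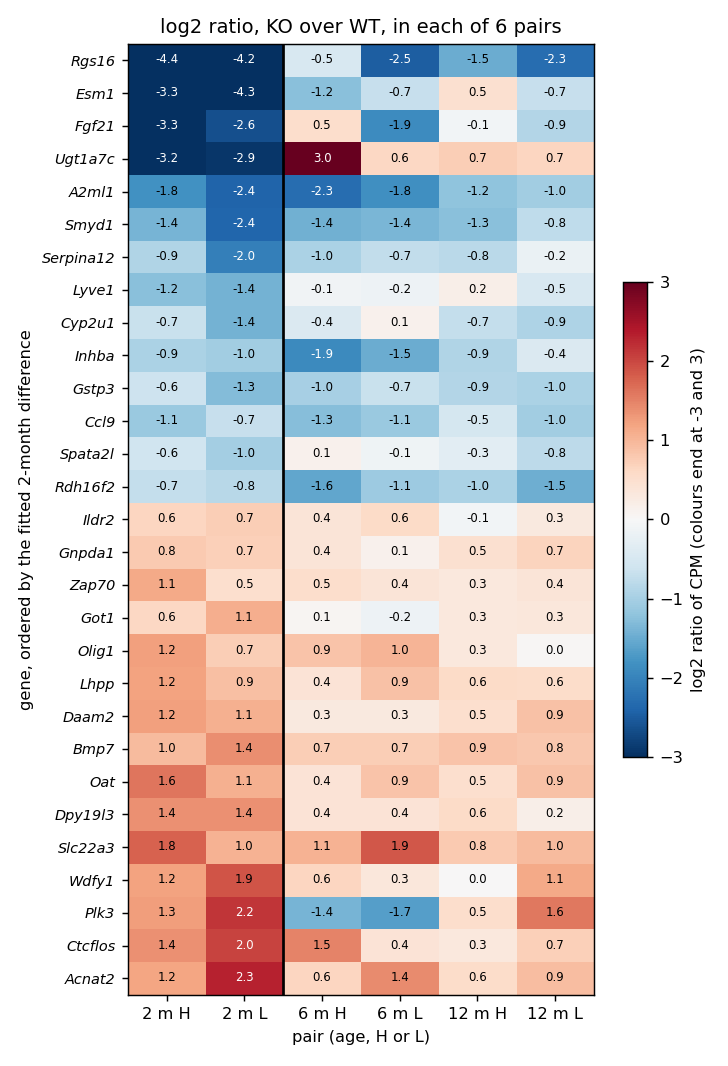
Log2 ratio of CPM, KO over WT, of the genes with the smallest p at 2 months that are reported here (rows) in each of the 6 pairs (columns), with numbers in the cells. The genes were chosen by p from the fit of all 6 pairs, the fold change coming from the first 2 columns and the spread from all. *Ugt1a7c* has the opposite sign in the 4 later columns, where its WT libraries held only 0.379 to 0.687 CPM.

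The genotype effect at 2 months was also compared with the mean effect at 6 and 12 months in the same edgeR fit. No gene differed at an adjusted p under 0.05 (0 of 14843), 506 had an unadjusted p under 0.05, and DESeq2 called 7. The smallest adjusted p, 0.0599, was shared by the predicted gene *Gm9824*, with log2 fold changes of -0.67 at 2 months and 0.79 later, and *Foxq1*, a forkhead factor, with a log2 fold change of 0.78 at 2 months and -1.57 at 6 and 12 months. *Ugt1a7c* was lower at 2 months and had a log2 fold change of 1.45 at the later ages (unadjusted p of the difference = 0.000127, adjusted p = 0.628, edgeR). At those ages *Ugt1a7c* was low, at 0.379 to 0.687 CPM in WT and 0.868 to 3.86 CPM in KO, so its later sign rests on few reads. *Plk3* was 1.70 at 2 months and -0.27 later (unadjusted p = 0.00044, edgeR), where its pairs were -1.40 and -1.66 at 6 months but 0.52 and 1.59 at 12 months. *Rgs16* was -4.43 and -1.59 (unadjusted p = 0.00158, edgeR). *Lyve1* was -1.34 and -0.13 (unadjusted p = 0.00132, edgeR). None of these differences is shown to be particular to 2 months after adjustment.

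The daily range of the same genes was taken from the 6 libraries of the C57BL/6J time course at 2 months, which were normalized separately. Of the 174 genes, 169 were matched by symbol, and 137 of them (81.1%) had a highest value over 2-fold above the lowest of the day, compared with 33.4% of all genes. Their median daily range was 1.49 on the log2 scale, beside 0.73 for all genes, and their low counts widen it. In 75 of the 169, the smaller of the 2 pair ratios was larger than the daily range. All 169 were chosen for pair ratios over 2-fold, and the same count over all genes was not made. The 75 are thus a description of the chosen genes and no result about them.

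*Rgs16* is the clearest case of a gene with a large daily range. In the time course it was 1.87, 41.3, 47.9, 34.9, 1.69, and 0.467 CPM at ZT1, 5, 9, 13, 17, and 21, a range of 6.32 on the log2 scale. The WT L library, collected at ZT17 by the methods, held 32.3 CPM, near the 34.9 CPM of ZT13, and the WT H library lay between the values of ZT13 and ZT17. The KO libraries, at 0.433 and 1.65 CPM, lay near the values of ZT21 and ZT17. *A2ml1* had a daily range of 0.50, with 7.83 to 11.1 CPM, and its pair ratios of 1.81 and 2.40 in size were larger. Its 20.1 and 21.6 CPM in WT H and WT L lay above every time-course value, however, and the 5.68 and 4.004 CPM in KO lay below. *Oat* varied between 307.1 and 480.6 CPM over the day, a range of 0.65, below its smaller pair ratio of 1.06. Its 633.3 and 729.8 CPM in WT H and WT L also lay above every time-course value. For both genes the WT libraries of the 2 experiments thus differed, and the daily range does not cover that difference. Its cause was not tested. The plot of pair ratios against daily ranges shows these genes among the rest.

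**Figure D5:**
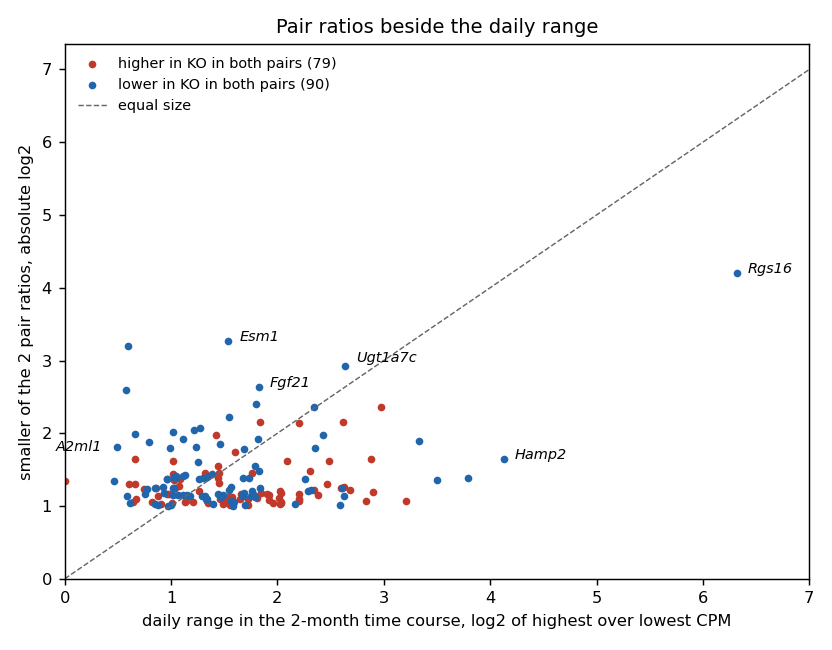
Smaller of the 2 pair ratios at 2 months (y axis, absolute log2) against the daily range in the 2-month time course (x axis, log2 of the highest over the lowest CPM) for the 169 matched genes over 2-fold in both pairs. Points above the dashed line, 75 genes, have pair ratios larger than the daily range, and *Rgs16* lies far to the right with a range of 6.32. By the rule that chose them, all points have a pair ratio over 2-fold.

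The genes were spread over the genome. Chromosome 7 held 20 of the 174 genes (1.79% of its genes tested), chromosome 17 held 15 (2.07%), and chromosome 15 held 11 (1.88%). Chromosome 18, where *Egr1* lies, held 0 of 366. Of all 14843 genes tested, 0.552% were over 2-fold higher in both pairs and 0.62% lower. The differences between chromosomes were not tested. Over 2-fold differences in both pairs made up 0.31% of the 10013 genes with at least 5 CPM in 1 library.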

How the data were processed

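Poly(A) RNA of liver was sequenced in 12 libraries of the genotype experiment, of which the 4 at 2 months are described. The authors deposited counts of reads per gene without normalization, listed by Ensembl ID, after the processing tools that the submitters' notes name (fastp, HISAT2, featureCounts, genome mm10). Their versions, the annotation, the use of strand, and the treatment of reads with several matches are not given in the sources used here. IDs were matched to symbols (55144 of 55471) and to GENCODE M21 positions on GRCm38.

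Counts were tested with edgeR 4.0.16 in R 4.3.3 (filterByExpr, TMM, quasi-likelihood F-test, Benjamini-Hochberg adjustment). The fit used all 12 libraries with a block for each of the 6 pairs of age and time and a genotype term for each age, which left 3 residual degrees of freedom beside 5.12 prior ones. With 1 library per group, the p-values set the 2-month difference against how far the 2 pairs of each age differ. That spread is pooled over the 3 ages and moderated across genes, and it is not the spread between mice. Per-pair log2 ratios were taken from CPM with a prior count of 2, and the 2-fold rule on them is a description. Named genes are the 15 in each direction with the smallest p that had the same sign in both pairs (predicted genes left out, and 1 of the lower genes is not reported here), *Egr1*, genes named by the study, clock genes, list members with the smallest p, and genes with the smallest p for the difference between ages. *Gm31583*, *Gm9824*, *Cyp2b9*, *Cyp2a4*, *Mup10*, *Sstr2*, the neutrophil and endothelial markers, and the genes next to the 2-fold limit were named after their values were seen. The members and gene lists were chosen with earlier results of these data known. The floor was 3 counts. DESeq2 1.42.0, other normalizations and filters, and leaving out pairs were the alternatives.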

Additional observations from a re-analysis of the deposited data

How the results depend on the processing

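The number of genes at an adjusted p under 0.05 at 2 months was 0 with RLE size factors, with a mean of at least 5 CPM, without the pair block, without the 12-month pairs, and with the study's added log2 limit of 1.2. It was 6 without normalization factors, 172 without a filter, 29 with DESeq2, 1 with the 4 libraries alone (*Rgs16*), 1 without the 6-month pairs (*Rgs16*), and 1 at an adjusted p under 0.1 (*A2ml1*). Leaving out 1 of the 2-month pairs gave 0 to 19 genes: 0 without the L pair, and 19 without the H pair, when 1 pair alone carries the comparison and is assumed to vary like the other ages. At an unadjusted p under 0.05 the count was 472 without the L pair and 1312 without the H pair, beside 970. For the difference between ages, the count was 58 without a filter, 7 with DESeq2, 2 at an adjusted p under 0.1, and 0 to 5 when 1 of the 2-month pairs was left out. The 174 genes over 2-fold in both pairs became 641 at 1.5-fold, 38 at 3-fold, 23 with a mean of at least 5 CPM, and 274 with a prior count of 0.5. Without normalization factors there were 109 higher and 74 lower genes in place of 82 and 92. Log2 fold changes that turned sign were those of *Slc6a19* (3.30 without the H pair and -6.41 without the L pair), *Lpcat4* (0.90 and -0.03), *Kcnj10* (1.03 and -0.08), *Egr1* (2.31 and -0.37), and *Mup17* (-1.93 and 1.31, and 0.08 without the pair block), in the same order. *Ggt1* was -0.63 without the L pair and 0 without the H pair, whose removal leaves no read of it. None of these genes passed the test, and the causes were not tested. No paired analysis by replicate number was possible because the labels carry no replicate numbers. The pairs of the fit are those of age and time. Depth limits the genes with 3 counts or fewer in a library, for which a fold change depends on the prior count.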
